A study of Homo sapiens with 80 samples.

Results

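The 7 genes described here encode the heavy and light chains of cardiac myosin, the motor of the thick filament: the heavy chains MYH6, MYH7 and MYH7B, the essential light chains MYL3 and MYL4, and the regulatory light chains MYL2 and MYL7. They were chosen by name, and all 7 were found among the 43388 genes of both tables of TPM, a level scaled for gene length and library depth. Their levels came from human pluripotent stem cells that were turned into cardiomyocytes by a WNT activator on day 0, CHIR99021 at 6 to 12 µM, and then by 5 µM IWP2, which blocks WNT secretion. Purity, high or low, was assigned once a differentiation had ended, from flow cytometry for cardiac troponin T, the product of TNNT2. The multi-omic experiment gave 56 poly(A) RNA libraries, all from the induced pluripotent line WTC11. Its 25 high purity libraries were wells of a passage 52 differentiation and its 31 low purity libraries were wells of a passage 69 differentiation. Both classes had 4 wells a day up to day 6; later the numbers of high and low wells were 3 and 4 (day 8), 1 and 4 (day 10), 2 and 4 (day 13), and 3 and 3 (day 16). Class, passage and differentiation cannot be told apart there, and p-values measure only the spread between wells of a differentiation. The RNA-only experiment gave 24 total RNA libraries at 4 stages. They came from WTC11 (low at passage 69, high at passage 81), from IMR90-4, another induced pluripotent line (high at passage 55, low at passage 75), and from the embryonic stem cells H9 (low at passage 55, high at passage 58). Each of these 6 differentiations gave 1 library a stage. Stage 1 is day 0 for every line; stages 2, 3 and 4 are days 2, 4 and 6 in WTC11 and days 3, 5 and 7 in the others.

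A cardiac myosin molecule pairs heavy chains, which hydrolyse ATP and pull on actin, with an essential and a regulatory light chain that wrap the lever arm of each head. MYH6 encodes the fast alpha heavy chain and MYH7 the slower beta heavy chain; in the adult human heart MYH7 prevails in the ventricle and MYH6 in the atrium. Of the light chains, MYL7 and MYL4 are known as the atrial regulatory and essential chains and are also made throughout the early heart, while MYL2 and MYL3 are the ventricular regulatory and essential chains. MYH7B is an ancient relative of MYH7 that makes little protein in mammalian heart and carries a microRNA gene in an intron.

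Between 6579715 and 18143597 reads stood behind a multi-omic library and between 17990882 and 40357968 behind an RNA-only library. The names of the multi-omic tables did not match each other: reads worked back from a TPM column were found under its own name in 0 of 56 cases, and the names of the TPM table were used. Which table carries the right names is not settled, and the check on the TPM names that follows covers day 0 and day 16 but not purity. The summed TPM of 7 pluripotency genes lay between 4600 and 5520 in the day 0 wells and between 36.7 and 50.4 in the day 16 wells. On day 16 the wells also differed in cells other than cardiomyocytes: 9 fibroblast and stromal genes summed to 588 to 709 TPM in the high and 9770 to 13300 TPM in the low wells. In bulk RNA, fewer cardiomyocytes and less of a transcript per cardiomyocyte cannot be told apart.

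The first result was the order in which the chains appeared, seen in the plot of levels by day. MYL4, MYL7, MYH6 and MYL3 were raised over day 0 by day 4 in both differentiations, MYH7 by day 6, MYH7B by day 6 (low) or day 8 (high), and MYL2 last, from day 13 (low) or day 16 (high). The day given is the first from which the rise was called on every later day too. A gene is said to have risen where limma gave a Benjamini-Hochberg adjusted p under 0.05 over 25664 genes and a log2 change of at least 1, on the scale of log2(TPM + 1). The order thus ran from light chains and MYH6 to MYH7 and then to MYL2. In the high class 0 of 7 members had risen on day 2 (9.66% of all genes tested had) and 4 of 7 on day 4 (10.8%). Day 6 had 5 (13.1%), day 8 had 6 (14.1%) and day 10 had all 7 (15.4%), while 6 were called at day 13 (19.0%) and 7 at day 16 (19.4%). In the low class the count was 1 at day 2 (11.0%) and 4 at day 4 (12.8%). It was 6 at day 6 (15.9%), at day 8 (17.2%) and at day 10 (19.7%), and 7 at day 13 (20.4%) and day 16 (19.5%).

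**Figure D1:**
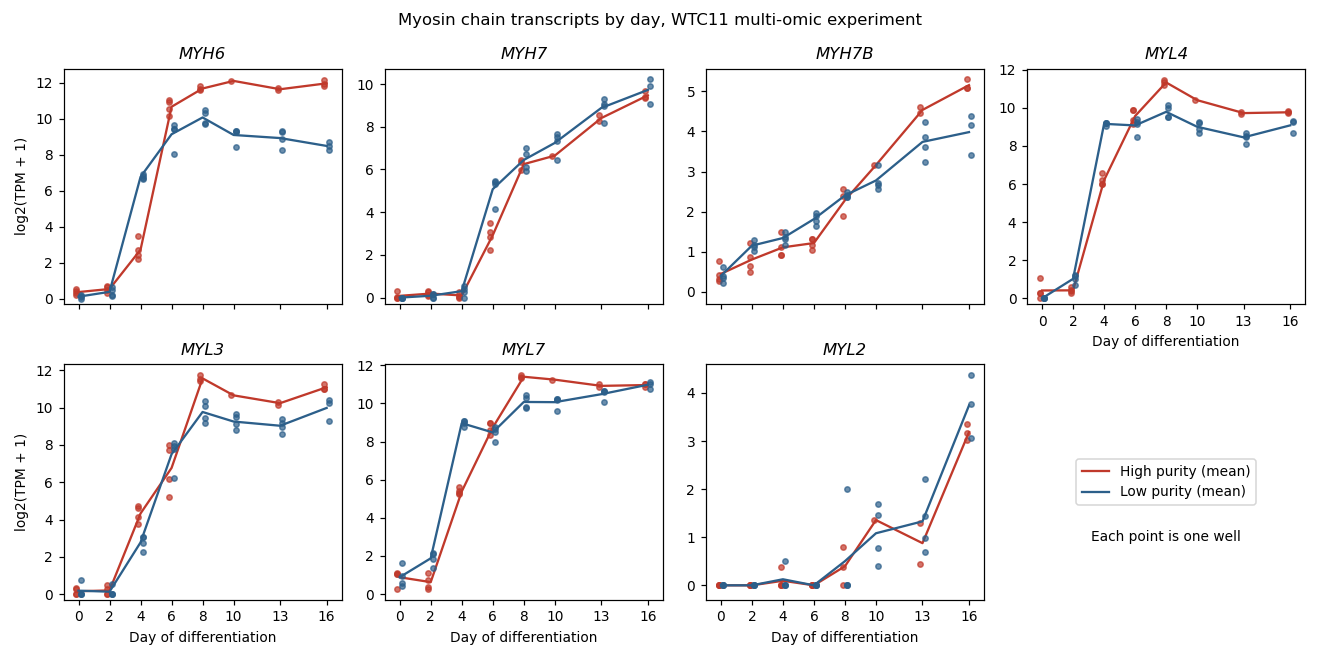
Level of each myosin chain, as log2(TPM + 1), against day of differentiation in the multi-omic experiment; points are wells and lines join class means (high purity in red, low purity in blue). MYH6, MYL4 and MYL7 are higher in the low wells on day 4, MYH6 is higher in every high well from day 6 on, and MYL2 stays under 20 TPM in all wells.

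MYL4, the atrial and embryonic essential light chain, was the 1 member called on day 2, in the low class. In the low wells it stood at 0 on day 0, at 1.34, 1.01, 0.621 and 1.23 TPM on day 2, which rest on 2 to 4 reads each, and at 586, 523, 581 and 599 TPM on day 4. The high wells were at 0.219 to 0.483 TPM on day 2 and at 72.5, 63.1, 63.5 and 96.2 TPM on day 4. No high well reached a low well on day 4. The call of the low class on day 2 (log2 change 1.02 ± 0.19 SE, limma adjusted p = 1.27e-05) was lost without low well 1 or low well 4, with a pseudocount of 5 and by edgeR on recovered reads; MYL7 in turn was called in the low class from day 2 without low well 1 or low well 3, with a pseudocount of 0.1 and with no threshold on the fold change. Both classes had their highest mean on day 8, at 2589 and 901 TPM.

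MYL7, the atrial regulatory light chain, was already present at 0.207 to 2.04 TPM on day 0. On day 2 the low wells held 3.5, 2.63, 1.62 and 3.22 TPM and the high wells 0.315, 1.14, 0.211 and 0.655 TPM, so that the classes did not overlap (34.0% of genes tested did not on that day). By day 4 the low wells held 535, 430, 505 and 534 TPM against 42.0, 36.4, 37.9 and 47.2 TPM in the high wells. The high class peaked on day 8 at a mean of 2705 TPM and stood at 74.0% of that on day 16; in the low class the highest mean, 2031 TPM, was that of day 16.

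MYH6 was nearly absent until day 2, with at most 0.619 TPM in any well. On day 4 its low wells held 110, 103, 99.4 and 118 TPM and its high wells 4.45, 3.66, 5.51 and 10.3 TPM. Between day 4 and day 6 the high class mean rose 276-fold, from 5.99 to 1654 TPM, and the low class mean 5.64-fold, from 108 to 606 TPM. The classes thereby changed places within 2 days. After its highest mean of 1098 TPM on day 8 the low class stood at 32.7% of that level on day 16, whereas the high class, whose single day 10 well held 4356 TPM, was at 91.6% of that on day 16.

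MYL3, the ventricular essential light chain, rose with the atrial chains rather than with MYL2. Its gene overlaps PTH1R in the RefSeq annotation. On day 4 its high wells held 16.8, 12.8, 25.9 and 23.6 TPM and its low wells 3.74, 5.60, 7.45 and 7.26 TPM, with no overlap and in the direction opposite to MYL4, MYL7 and MYH6. The wells of day 6 spread widely, from 35.5 to 257 TPM in the high class and from 74.5 to 271 TPM in the low class. On day 8 the high wells had reached 2731, 3412 and 2994 TPM against 585, 1333, 1072 and 685 TPM.

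MYH7, the beta heavy chain, stayed under 0.5 TPM to day 4 in every well. On day 6 the low wells were ahead with 39.3, 42.9, 41.0 and 16.5 TPM, and the high wells held 10.4, 6.23, 3.74 and 7.39 TPM. From day 8 on the classes overlapped, and day 16 had the highest mean of both, with 646, 821 and 669 TPM in the high wells and 528, 1186 and 961 TPM in the low wells. Its means there were 712 and 891 TPM.

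MYH7B rose late and remained low. Its means on day 16 were 34.7 ± 3.5 TPM (SD, n = 3) in the high and 15.4 ± 5.3 TPM (SD, n = 3) in the low wells, the highest of any day in each class. Its day of onset moved from 2 to 13 with the setting in the low class and from 4 to 10 in the high class. Part of the gene lies under TRPC4AP and GSS in the RefSeq annotation, and whether reads were counted by strand is not given in the sources used here.

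MYL2, the ventricular regulatory light chain, was the last and the lowest. All 16 wells of days 0 and 2 and all 8 of day 6 were at 0, and no well before day 16 passed 3.61 TPM. On day 16 the high wells held 7.15, 9.27 and 8.01 TPM (27 to 39 reads) and the low wells 7.38, 19.8 and 12.7 TPM (31 to 73 reads). The classes overlapped, and day 16 was the first day on which every well of both classes held 7.15 TPM or more.

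The second comparison set high against low purity on each day; differences below are high minus low on the log2(TPM + 1) scale after TMM scaling, with their standard errors. They changed direction with time: 1 member was higher and 3 were lower in the high class on day 4, where 7.84% of genes tested were called in either direction, and 4 were higher and 0 lower on day 8, where 12.2% were. No member was called at day 0 (1.07% of genes tested), 1 was lower at day 2 (5.33%), and day 6 had 1 higher and 1 lower (8.80%). From day 10 the called members were all higher: 4 at first (14.3%), then 3 at day 13 (10.8%) and 3 at day 16 (13.4%). The median difference over the 7 members went from −0.23 on day 4 to 1.55 on day 8 and 0.91 on day 16, beside medians over all genes tested of 0.00, −0.03 and 0.00.

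**Figure D2:**
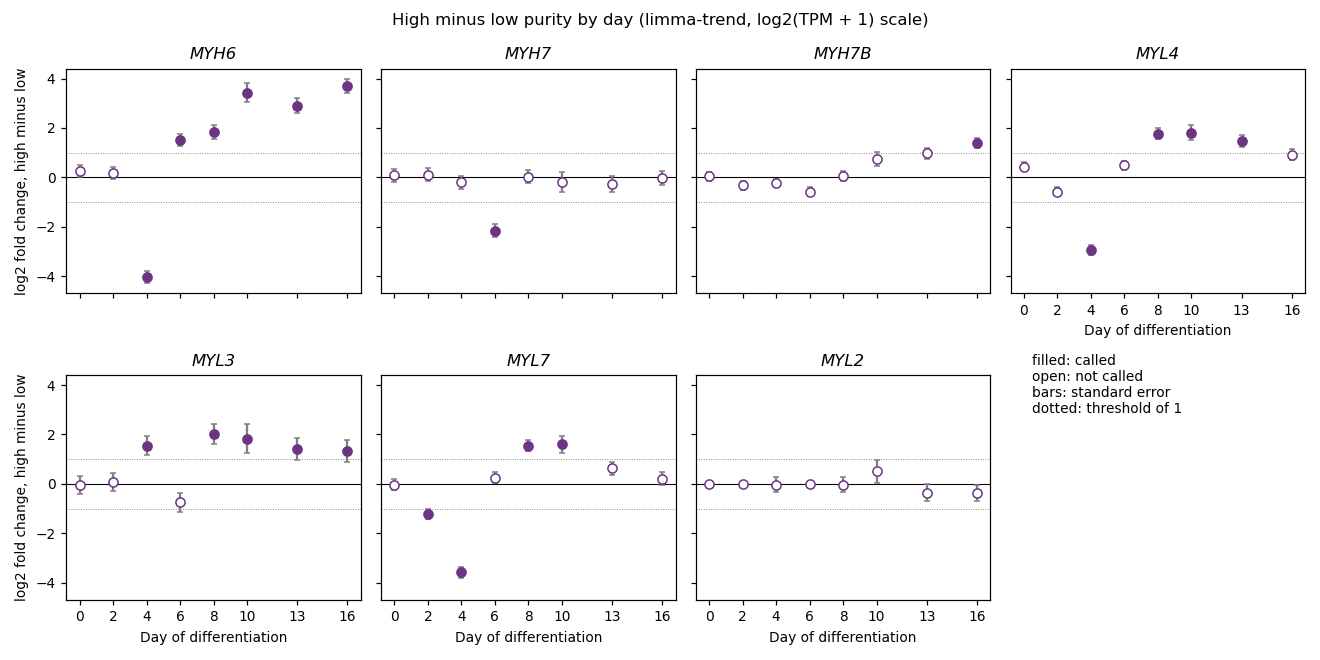
Difference between high and low purity wells by day for each member, as log2 fold change with its standard error (limma-trend on log2(TPM + 1)); filled points passed the call rule and dotted lines mark its fold threshold of 1 either way. MYH6, MYL4 and MYL7 are at −4.03, −2.95 and −3.58 on day 4 and above 1.5 on day 8, while MYH7 is called on day 6 alone.

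On day 4 the early chains were lower in the high class, by 4.03 ± 0.25 for MYH6 (limma adjusted p = 6.16e-18), 3.58 ± 0.22 for MYL7 (4.64e-18) and 2.95 ± 0.19 for MYL4 (3.70e-17), and MYL3 was higher by 1.55 ± 0.37 (6.85e-04). Back on the linear scale the fitted differences were 16.3-fold, 11.9-fold and 7.73-fold higher in the low class for the first 3, and 2.93-fold higher in the high class for MYL3. Other sarcomere genes moved in the same direction as MYH6: 7 of 12 thin filament genes were lower in the high class and 0 higher, among them TNNT2 (−4.95 ± 0.27), ACTC1, the cardiac actin (−4.84 ± 0.15), and TPM1, a tropomyosin (−2.68 ± 0.08). Of 10 genes tested that build, fold or modify the thick filament, 4 were lower and 0 higher; they included SMYD1 (−3.65 ± 0.21) and UNC45B (−3.31 ± 0.17), a methyltransferase and a chaperone of myosin. The regulators MEF2C (−2.24 ± 0.20) and MYOCD (−1.99 ± 0.16) were among 5 of 14 cardiac regulators lower. Genes of other cells moved with them on that day: 5 of 6 smooth muscle genes (130 to 152 TPM summed in the high and 558 to 649 in the low wells) and 5 of 9 fibroblast genes (440 to 629 and 1540 to 1600 TPM) were lower in the high class, with 1 fibroblast gene higher, and their part in the result was not tested.

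The upstream sequences of MYH6 and MYL7, a pair of members that were high together in the low wells on day 4, are shown because they are the 2 of these genes with a single start site in the RefSeq promoter table (GRCh38.p14); MYL3 has 2 windows in it. Each line gives the 250 bases before the start site, minus strand, with matched motifs in capitals.
MYH6, chr14:23408274-23408523: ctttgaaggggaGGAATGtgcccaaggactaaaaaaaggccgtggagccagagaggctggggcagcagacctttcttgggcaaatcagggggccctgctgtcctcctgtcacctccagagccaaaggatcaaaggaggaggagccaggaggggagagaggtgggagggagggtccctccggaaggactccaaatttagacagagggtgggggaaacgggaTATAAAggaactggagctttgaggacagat
MYL7, chr7:44141333-44141582: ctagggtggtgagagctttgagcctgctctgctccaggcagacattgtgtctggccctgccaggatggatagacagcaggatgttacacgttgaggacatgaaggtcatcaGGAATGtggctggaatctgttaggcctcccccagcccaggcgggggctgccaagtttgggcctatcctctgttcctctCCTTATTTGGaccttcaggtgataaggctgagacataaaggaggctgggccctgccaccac
The motifs searched on both strands numbered 6, and none of the matches shown overlaps another. One was the core promoter element with the letters TATAAA. Another was the site of the zinc finger factors GATA4 and GATA6, searched only as AGATAA. The form TGATAA, whose letters occur in the MYL7 line and in a MYL3 window, was not searched. The TEAD factor site known as M-CAT was searched as CATTCC and is printed here as its reverse complement. For NKX2-5 the letters were TNAAGTG, and the CArG box and the MEF2 site, whose letters are degenerate, were searched by their usual consensus. MYH6 held TATAAA beginning 30 bases before the start site and an M-CAT element 238 bases before it. MYL7 held an M-CAT element 139 bases and a CArG box 61 bases before the start site. Over all 35116 windows of that length, 10.7% held TATAAA, 11.9% an M-CAT element and 1.2% a CArG box. Neither MYL3 window held a match to any of the 6 as searched here.

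Between day 6 and day 8 the direction turned. MYH6 was higher in the high class by 1.51 ± 0.25 on day 6 (limma adjusted p = 2.26e-06) and 1.84 ± 0.27 on day 8 (1.73e-07), with no overlap of wells on either day. MYH7 went the other way on day 6, lower in the high class by 2.16 ± 0.26 (2.64e-09), and differed by 0.03 ± 0.28 on day 8, with a 95% interval from −0.53 to 0.60. MYL3, MYL4 and MYL7 were higher in the high class on day 8 by 2.03 ± 0.40, 1.77 ± 0.21 and 1.55 ± 0.23. High and low wells stood fully apart for 4 of 7 members at day 8, beside 42.2% of genes tested. At earlier days that held for 1 member (day 0, 21.8% of genes), 2 members (day 2), 4 members (day 4, 31.7%) and 3 members (day 6, 30.7%). Later it held for 5 members (day 10, 69.1%), 5 members (day 13, 47.5%) and 4 members (day 16, 47.6%).

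By day 16 the chains had parted. MYH6 was at 4595, 3798 and 3580 TPM in the high wells and at 307, 416 and 352 TPM in the low wells, a difference of 3.70 ± 0.29 (limma adjusted p = 7.41e-15) or 13.0-fold. The lowest high well was far above the highest low well. MYH7B was higher in the high class by 1.39 ± 0.21 (3.69e-07) and MYL3 by 1.33 ± 0.43 (0.00960), the latter with 2009, 2494 and 2075 TPM against 621, 1374 and 1211 TPM. Without low well 1 the MYL3 difference was 0.99 and no longer called (adjusted p = 0.108), and with a pseudocount of 0.1 its adjusted p was 0.127.

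The other 4 chains did not pass the rule on day 16. MYL4 held 868, 896 and 850 TPM in the high and 416, 632 and 601 TPM in the low wells, which did not overlap, but its difference of 0.91 ± 0.22 was under the fold threshold. MYL7 held 2086, 2058 and 1865 TPM against 1757, 2233 and 2103 TPM, a difference of 0.21 ± 0.25 with a 95% interval from −0.30 to 0.71; it was −0.01 on TPM without TMM scaling. For MYH7 the difference was −0.03 ± 0.30 (interval −0.63 to 0.57) and for MYL2 it was −0.36 ± 0.33 (interval −1.03 to 0.32). Without TMM scaling the median of all genes on day 16 moved from 0.00 to −0.12, and MYH6 was still higher by 3.48.

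The change in the class difference was tested as day 16 minus day 4, a contrast added with the day-by-day values known. It was 7.72 ± 0.38 for MYH6 (limma adjusted p = 4.88e-21), 3.86 ± 0.29 for MYL4, 3.78 ± 0.33 for MYL7 and 1.61 ± 0.28 for MYH7B, and these 4 of 7 members were called where 15.5% of genes tested were. A change need not be a reversal. On day 16 MYL7 was at 0.21 and MYL4 at 0.91, neither called, and on day 4 MYH7B was at −0.23, not called. MYL3 gave −0.22 ± 0.57: it was higher in the high class on both days.

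Genes around the myosins on day 16 were read from lists, beside the 13.4% of genes tested that were called that day. Of 10 thick filament partners tested, 8 were higher in the high class and 0 lower, among them SMYD1 (2.05 ± 0.25), TRIM63, a ubiquitin ligase of muscle (1.90 ± 0.24), and TTN, titin (1.62 ± 0.20); the median of the list was 1.57 against 0.00 over all genes tested. Among 12 thin filament genes, 7 were higher and 0 lower, including TMOD1 (2.15 ± 0.25) and TNNT2 (1.89 ± 0.31). Purity was assigned from the protein of TNNT2, so the TNNT2 difference is not a result separate from the labels. Ventricular genes other than MYL2 and MYL3 were higher in 4 of 5 cases: the transcription factors IRX4 (2.58 ± 0.31), HEY2 (1.71 ± 0.13) and PRDM16 (1.62 ± 0.22) and the LIM protein FHL2 (2.01 ± 0.23). The fifth, the transcription factor HAND1, was not called and lay the other way without overlap, at 63.6 to 74.5 TPM in the high and 124.5 to 134.1 TPM in the low wells. Of 7 atrial genes other than the light chains, 0 were higher and 1, the potassium channel gene KCNJ3, was lower (−2.55 ± 0.20), a share near that of all genes. NKX2-5 (1.93 ± 0.29), MEF2C (1.71 ± 0.24), TBX20 (1.58 ± 0.18) and MYOCD (1.55 ± 0.19) were among 7 of 14 cardiac regulators higher, with 0 lower.

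Myosins of other tissues were read from lists as well. The 10 skeletal and other sarcomeric myosin genes summed to 9.71 to 13.7 TPM over the day 16 wells of both classes, so that the cardiac chains made up nearly all sarcomeric myosin RNA. Of the 7 of them that were tested, 2 were higher in the high class on day 16 and 1 was lower, where 13.4% of genes tested were called. Of 8 skeletal muscle markers, 6 were tested, and CKM, ACTN3 and PAX3 were higher in the high class; CKM is a muscle creatine kinase that heart also makes, and MYF5, MYF6 and PAX7 were at 0 in all 6 wells. Of 8 nonmuscle and smooth muscle myosin genes tested on day 16, 4 were lower in the high class and 1 higher. MYH9 (−1.54 ± 0.09) and MYH10 (−1.31 ± 0.05), the nonmuscle heavy chains, were lower together with MYL12B (−1.28 ± 0.10), and MYH14 was higher (1.30 ± 0.18). In the same wells 8 of 9 fibroblast genes, 7 of 7 epicardial genes (18.7 to 22.9 TPM summed against 413 to 565) and 4 of 6 smooth muscle genes (346 to 405 TPM against 1670 to 1800) were lower in the high class, and their part in the myosin differences was not tested.

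Since the classes held different amounts of troponin T RNA, each chain was also expressed per TNNT2 TPM, a description chosen after the levels were seen and given without a test. On day 16 MYH6 stood at 1.19 ± 0.10 per TNNT2 in the high and 0.339 ± 0.045 in the low wells (SD, n = 3 each). TNNT2 itself was lower in the low wells, so a gene at equal TPM in both classes comes out higher per TNNT2 there. The other 6 chains had higher values per TNNT2 in the low wells: MYL7 at 0.598 ± 0.0465 and 1.92 ± 0.205, MYH7 at 0.213 ± 0.033 and 0.813 ± 0.191, MYL4 at 0.261 ± 0.032 and 0.512 ± 0.027, MYL3 at 0.656 ± 0.099 and 0.972 ± 0.214, and MYL2 at 0.00244 ± 0.00045 and 0.0121 ± 0.0043. For MYH7B the wells ran from 0.00884 to 0.0114 and from 0.0116 to 0.0162.

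The third comparison was of isoform ratios within a well, which do not depend on how many cardiomyocytes a well held as long as both genes come from the same cells. The MYH6 to MYH7 ratio was smaller on day 16 than on day 6 in every well of both classes, and it stood lower in the low wells on every day from day 6 on. On day 6 MYH6 TPM was 200, 238, 304 and 259 times MYH7 TPM in the high wells and 17.2, 18.9, 16.5 and 15.9 times in the low wells. On day 10 the single high well was at 43.9 and the low wells were at 3.84, 3.42, 3.21 and 4.04. Day 13 found the low wells at parity, with ratios of 1.08, 1.01, 1.10 and 0.918, and the 2 high wells at 10.6 and 8.25. On day 16 the ratio was 7.11, 4.63 and 5.35 in the high wells and 0.581, 0.351 and 0.367 in the low wells. MYH7 therefore made up 12.3%, 17.8% and 15.7% of the MYH6 and MYH7 sum in the high wells and 63.2%, 74.0% and 73.2% in the low wells.

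**Figure D3:**
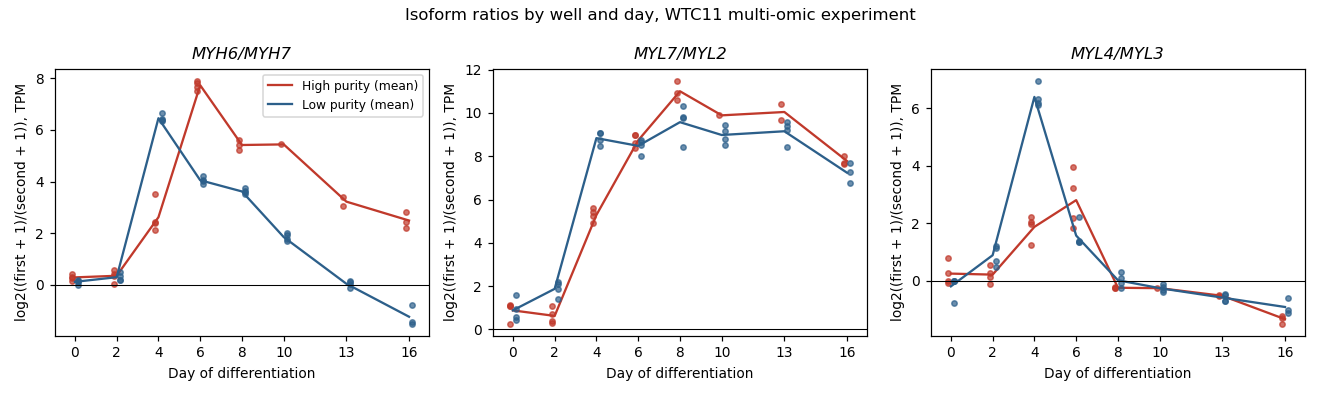
Ratios of paired myosin chains, as log2((first + 1)/(second + 1)) of TPM, by day in the multi-omic experiment; points are wells and lines join class means (high purity in red, low purity in blue). On day 16 the MYH6 to MYH7 ratio averages 2.49 in the high and −1.24 in the low wells, while the MYL7 to MYL2 ratios overlap.

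On the log2((A + 1)/(B + 1)) scale the high minus low difference in MYH6 to MYH7 was 3.68 on day 6 (7.73 ± 0.18 against 4.05 ± 0.12, SD, n = 4 each; exact two-sided permutation p = 0.0286, the smallest that design allows), 3.19 on day 13 (exact p = 0.133, the smallest possible) and 3.73 on day 16 (2.49 ± 0.31 against −1.24 ± 0.40, n = 3 each; exact p = 0.10, the smallest possible). Day 16 minus day 8 was −2.93 in the high class (exact p = 0.10) and −4.86 in the low class (exact p = 0.0571), each the smallest p its wells allow. Over the 21 exact ratio tests, 17 had no overlap of wells, 4 had p = 0.0286, and the smallest adjusted value was 0.131. With these numbers of wells no ratio could have passed after adjustment, so that none did is not a result about the ratios.

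For the regulatory light chains, MYL7 was 292, 222 and 233 times MYL2 in the high and 238, 113 and 166 times in the low wells on day 16, so that MYL2 made up less than 1% of the pair in every well. The wells of both classes overlapped, with a difference of 0.54 (7.78 ± 0.19 against 7.24 ± 0.48, n = 3 each; exact p = 0.300). For the essential chains the classes differed on day 4, when MYL4 was 4.32, 4.94, 2.45 and 4.07 times MYL3 in the high wells and 157, 93.4, 78.0 and 82.4 times in the low wells (difference −4.51, exact p = 0.0286, adjusted 0.131, n = 4 each). By day 8 both were close to 1 to 1, and on day 16 MYL3 exceeded MYL4 in all 6 wells, making up 69.8%, 73.6% and 70.9% of the pair in the high and 59.9%, 68.5% and 66.8% in the low wells. Between the atrial light chains, MYL7 was 0.579, 0.576, 0.598 and 0.491 times MYL4 in the high wells of day 4 and 0.912, 0.822, 0.869 and 0.891 times in the low wells (difference −0.63 on the log2 scale, exact p = 0.0286, adjusted 0.131, n = 4 each). The classes did not overlap on day 6 either (difference −0.24, exact p = 0.0286, adjusted 0.131). On day 16 the ratio was 2.40, 2.30 and 2.19 in the high and 4.23, 3.54 and 3.5 in the low wells (difference −0.70, exact p = 0.10, adjusted 0.131, n = 3 each). From day 4 to day 16 MYL7 thus stood lower against MYL4 in the high wells on each sampled day. The ventricular chain led among essential light chains by day 16 and the atrial chain among regulatory ones, in both classes.

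Light chain and heavy chain sums were compared as well. On day 4 the summed light chain TPM was 14.9 to 24.3 times the heavy chain sum in the high wells and 9.16 to 10.9 times in the low wells. On day 16 it was 0.942 to 1.17 times in the high and 2.63 to 3.32 times in the low wells. The 7 genes together took up 0.908% to 1.02% of all TPM in the high and 0.365% to 0.588% in the low wells on that day.

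How far MYH6 and MYH7 reads can be told apart bears on their ratio. The genes lie head to tail on the minus strand of chromosome 14, at 23381990 to 23408277 (MYH6) and 23412738 to 23435718 (MYH7) in GENCODE v29 on GRCh38. Their longest coding sequences are identical at 91.1% of 5803 aligned bases, 15.1% of the 50-base words and 5.4% of the 100-base words of MYH6 occur unchanged in MYH7, and the longest identical run is 395 bases. The 60 coding bases where they differ most, in 23 positions, are shown because such stretches are what lets a read be assigned; capitals mark bases that differ between the lines. They run from coding position 3225 to 3284 of MYH6 across exons 23 and 24, and from 3219 to 3278 of MYH7 across exons 25 and 26.
MYH6: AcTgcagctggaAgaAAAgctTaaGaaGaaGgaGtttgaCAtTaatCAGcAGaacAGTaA
MYH7: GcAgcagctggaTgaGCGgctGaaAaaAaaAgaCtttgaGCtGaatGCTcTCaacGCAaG
How reads that fit both genes were counted is not given in the sources used here. In the high wells of day 6 MYH7 was 0.328% to 0.497% of the sum of the pair, which is the most that MYH6 reads counted as MYH7 could make up there. The light chain pairs share no 50-base word: MYL3 and MYL4 are identical at 80.0% and MYL2 and MYL7 at 69.2% of aligned coding bases.

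Introns of the heavy chain genes hold microRNA genes that are known to act on myosin choice in muscle. miR-208a lies in intron 28 of MYH6, miR-208b in intron 30 of MYH7 and miR-499a in intron 20 of MYH7B, counted along the longest coding transcripts. Their mature sequences from RefSeq (GRCh38.p14) are given to show how alike the family is, with the seed (bases 2 to 8) in capitals.
hsa-miR-208a-3p: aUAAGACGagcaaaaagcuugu
hsa-miR-208b-3p: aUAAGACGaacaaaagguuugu
hsa-miR-499a-5p: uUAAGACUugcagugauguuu
miR-208a and miR-208b share a seed and differ by G10A, A16G and C18U, counted from the 5′ end of miR-208a. The libraries do not measure mature microRNAs, and reads on these entries can come from the intron of the host. MIR208A had 0 reads in all wells up to day 4 and at most 9 in any later well. On day 10 the single high well had 4 reads and the low wells 0 to 4, and on day 16 the high wells had 1 to 9 reads and the low wells 0. MIR208B reached 9 reads in a high well of day 8 and 3 in a low well of that day, and MIR499A at most 3 reads in any well. MHRT, a long noncoding RNA annotated within MYH7, had at most 4 reads. The fit did call MIR208A higher in the high class on day 16 (3.77 ± 0.96, limma adjusted p = 0.00110). At this depth no difference between the classes was read from these entries.

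The genes whose pattern was most like each chain were taken by Pearson correlation of log2(mean TPM + 1) over the 16 class and day means, among 13366 genes; the points share libraries and a common rise with time, so the values are descriptive. Closest to MYH6 were SMYD1 (r = 0.992), UNC45B (0.991) and the unnamed locus LOC105377035 (0.991). MYL4 was followed by MYLK3, a kinase of cardiac light chains (0.99), JPH2, junctophilin (0.99), and TRIM55 (0.988). Next to MYL3 stood LMOD2, leiomodin (0.987), MAP3K20 (0.985) and TRAPPC9 (0.982), and next to MYL7 stood PALLD (0.985), FILIP1 (0.985) and COL2A1, a cartilage collagen (0.984). MYH7 was matched by PRSS42 (0.984), CRYAB, a small heat shock protein (0.983), and LIMS2 (0.981), and MYH7B by LRRC10 (0.978), C1orf162 (0.977) and AMY2B (0.972). PRSS42, named PRSS42P in RefSeq, lies 23777 bases from MYL3 on chromosome 3. MYL2 had the loosest matches, TRDN-AS1 (0.906), MLIP (0.891) and STK39 (0.886). Among the members the closest pair was MYL4 and MYL7 (0.98) and the least alike was MYL2 and MYL4 (0.44).

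The RNA-only experiment asked the same of 3 lines to day 6 or 7. Across the 6 differentiations, 2 of 6 members tested had risen over stage 1 at stage 2 (14.8% of 23848 genes had), 6 of 6 at stage 3 (20.5%) and 6 of 6 at stage 4 (23.4%), by edgeR's quasi-likelihood test with the same thresholds. MYL2 did not pass the filter on low counts: it had 1 read in each of 2 libraries and 0 in the other 22. MYL4 (log2 change 7.63 ± 1.82, adjusted p = 0.00203) and MYL3 (3.93 ± 1.09, 0.00592) were the chains called at stage 2. With limma on TPM the MYL3 call was lost (1.40, adjusted p = 0.0930). In WTC11, sampled on day 2, MYL3 was at 0.333 (low) and 0 TPM (high) at stage 2, from 0.241 and 0.236 TPM at stage 1. The H9 and IMR90-4 libraries of stage 2, taken on day 3, held 2.44 to 8.24 TPM. MYL7, at 2.34 ± 0.96 (0.0502), was called by DESeq2 (2.31, 0.00953), by limma on TPM (2.15, 0.0283), with RLE scaling or no TMM, and without WTC11 (4.38, 0.00785). MYH7B, at 0.92, was called without H9 (1.05) or without IMR90-4 (1.23). At stage 4 the changes were 13.17 ± 1.88 for MYL4, 12.04 ± 1.29 for MYH6, 8.23 ± 1.08 for MYL7, 7.40 ± 0.80 for MYH7, 7.26 ± 1.12 for MYL3 and 1.66 ± 0.24 for MYH7B. The stage 3 calls of MYH6 and MYH7 depend on single lines: with IMR90-4 or WTC11 left out their adjusted p lay between 0.0645 and 0.134, and without H9 that of MYH7 was 0.0621. On TPM with limma, 3 of 6 were called at stage 3, and the share of all genes called in that fit is not given here.

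**Figure D4:**
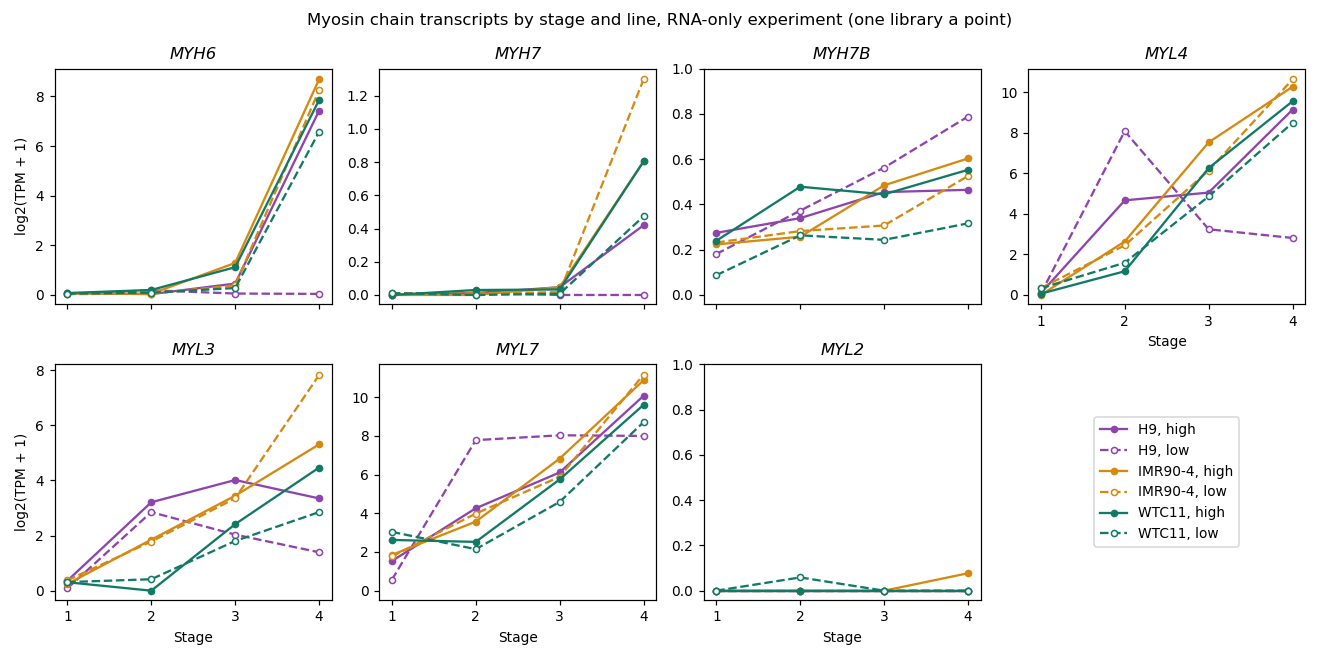
Level of each myosin chain, as log2(TPM + 1), by stage in the RNA-only experiment, with one library a point; colour marks the line, and solid lines with filled points are high purity, broken lines with open points low purity. The low purity H9 differentiation has its MYL4 maximum at stage 2 and stays near 0 for MYH6, unlike the other 5.

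At stage 4 MYH6 held 171 TPM in the high and 0.0305 TPM in the low H9 library, 411 and 303 TPM in IMR90-4, and 230 and 94.2 TPM in WTC11. The high library was above the low one in all 3 lines, by a margin that ran from 1.35-fold in IMR90-4 to all but complete absence of MYH6 in the low H9 library, which had 3 reads. High minus low was 2.49 ± 1.42 in the edgeR fit, and the adjusted p was 0.514.

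MYL4 and MYL7 had an early burst in the low H9 differentiation. On day 3 it held 268 TPM of MYL4 and 219 TPM of MYL7, against 24.3 and 18.1 TPM in the high H9 library and at most 5.21 and 14.8 TPM in the other 4 libraries of stage 2. MYL4 was then at 8.44 TPM on day 5 and 6.00 TPM on day 7, while MYL7 stayed at 261 and 255 TPM. In the high H9 differentiation MYL4 reached 560 TPM and MYL7 1075 TPM on day 7. The low H9 differentiation is a single culture. The multi-omic low wells also led on day 4, with means of 572 TPM of MYL4 and 501 TPM of MYL7 against 73.8 and 40.9 TPM. Their MYL4 did not then fall as in low H9, and averaged 555 TPM on day 6.

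MYL3 at stage 4 was higher in the high library of H9 (9.18 against 1.63 TPM) and WTC11 (21.1 against 6.21 TPM) and lower in that of IMR90-4 (38.6 against 225 TPM). The low IMR90-4 differentiation also led its high counterpart for MYL4 (1579 against 1227 TPM), MYL7 (2306 against 1881 TPM) and MYH7 (1.46 against 0.746 TPM). In WTC11 the high library was above the low one for all 6 chains that had reads at stage 4. The direction of the class difference thus varied between lines for every tested chain except MYH6, for which it was the same in all 3.

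No gene of 23848 was called between high and low purity at any stage by edgeR, so no member was; at unadjusted p under 0.05 there were 354, 1896, 1798 and 2876 genes at stages 1 to 4. DESeq2 called 0, 76, 51 and 205 genes and had 308, 2038, 1942 and 3084 at unadjusted p under 0.05. Without H9, MYH6 alone of the 6 members was called at stage 3 (2.22, edgeR adjusted p = 0.0107), in a fit whose share of all genes called is not given here. The libraries of that fit held 1.45 (high) and 0.310 TPM (low) in IMR90-4 and 1.17 and 0.215 TPM in WTC11.

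MYH6 to MYH7 at stage 4 stood at 505 in the high H9 library, at 551 in the high IMR90-4 library, and at 309 and 242 in the high and low WTC11 libraries. The low IMR90-4 library held 303 TPM of MYH6 and 1.46 TPM of MYH7, so the ratio was higher in the high library of both lines in which it could be formed for both classes. Each of these ratios is that of 1 library, with MYH7 at 57 to 127 reads in WTC11 and IMR90-4. The part of MYH6 reads counted as MYH7 in them was not tested. MYH7 was at 1.46 TPM or less in all 24 libraries. MYL4 exceeded MYL3 in all 6 differentiations at stage 4, by 61.0 and 3.69 times in high and low H9, 31.8 and 7.01 times in IMR90-4 and 35.4 and 57.5 times in WTC11.

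Passage 69 low purity WTC11 was sampled in both experiments, and its levels did not match on day 4, nor for some chains on day 6. On day 4 the multi-omic low wells averaged 108 TPM of MYH6, 501 TPM of MYL7, 572 TPM of MYL4 and 489 TPM of TNNT2; the RNA-only low library of that day held 0.215, 23.1, 27.9 and 0.613 TPM. High purity WTC11 held 5.99, 40.9, 73.8 and 15.2 TPM on average in the multi-omic wells and 1.17, 52.9, 75.2 and 2.78 TPM in the RNA-only library. The lead of the low class on day 4 was therefore seen in the multi-omic differentiation and not in the RNA-only one, where MYH6, MYL4, MYL7 and TNNT2 were all higher in the high library. On day 6 the multi-omic low wells averaged 606 TPM of MYH6, 34.9 TPM of MYH7 and 201 TPM of MYL3. The RNA-only low library held 94.2, 0.389 and 6.21 TPM, while MYL4 (555 and 357 TPM) and MYL7 (363 and 418 TPM) lay closer. MYH6 to MYH7 on day 6 was 15.9 to 18.9 in the multi-omic low wells and 242 in the RNA-only low library. In the high class it was 200 to 304 and 309. The library kits and differentiations differ between the experiments, and their part in this was not tested.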

How the data were processed

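Poly(A) RNA of 56 WTC11 wells and total RNA of 24 libraries of 3 lines had been sequenced. Reads were aligned with STAR 2.5.3a to hg38 and counted per gene with featureCounts 2.0.3, per the submitters' processing notes; annotation, strand setting and the making of the TPM are not given in the sources used here. The authors deposited whole-number counts and TPM for each experiment. Solved gene lengths turned the multi-omic TPM back into whole reads for 100% of nonzero values in 37194 genes (within 0.02 of a whole number up to 50 reads). Above 50 reads the allowance grew with the count, and at high counts the check could not fail. The recovered reads matched 0 of 56 count columns of the same name, 50 of another name and 6 of none, so the multi-omic tests used TPM, under the TPM names. In the RNA-only experiment all 24 matched; 36 broken lines of 6 genes were left out of its counts.

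For the multi-omic experiment, 25664 genes reached 1 TPM in 3 or more libraries. Their TPM were scaled by TMM, and log2(TPM + 1) entered limma-trend (limma 3.58.1, R 4.3.3) with a mean for each of 16 class and day groups (40 residual degrees of freedom). The single high well of day 10 is assumed to vary like the other groups. RNA-only counts of 23848 genes were fitted with edgeR 4.0.16 (quasi-likelihood test, TMM): 12 line-by-stage means plus a purity term at each of 4 stages left 8 residual degrees of freedom; change over stages used 6 differentiation means and 3 stage terms (15). A call needed both a Benjamini-Hochberg p below 0.05 and a log2 change of 1 or more in size. Ratios were compared by exact two-sided permutation over wells where both genes averaged at least 1 TPM in both groups, a limit set after seeing the values. Alternatives were other scalings, pseudocounts (0.1 and 5), no filter, no fold threshold, DESeq2 1.42.0, edgeR on recovered reads or on the count table under its own names, a replicate block, and leaving out each replicate. Scripts were tested on simulated data. Gene positions are from GENCODE v29 on GRCh38 unless RefSeq is named. Wells with the same number did not deviate together (r from −0.016 to 0.033 over 24 pairs).

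Members, 15 lists of 122 other genes and tests were chosen with earlier results of these data known. Genes named are the members, up to 4 called genes with the largest change per list on day 4 and on day 16, and the 3 genes of at least 10 TPM most alike each member over 16 means; MYF5, MYF6 and PAX7 and HAND1 on day 16, MIR208B, MIR499A and MHRT were named after their values were seen. One gene that this rule names is not reported here. Protein sequences were not used here.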

Additional observations from a re-analysis of the deposited data

Results flagged for a closer look

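Single wells stood apart from the others of their group by Dixon's criterion in 4 of 45 sets, a set being 1 member in 1 group of 4 wells. Chance gives about 1 in 20 for separate sets. These sets share wells, and the MYH6 and MYL7 flags of day 10 fall on the same well, so the number was not set against that rate. MYH6 in low purity well 4 of day 10 was at 348 TPM, against 616 to 641 TPM in the other 3 wells. MYL7 in that well was at 765 TPM, against 1180 to 1215 TPM. MYH7 in low purity well 4 of day 6 was at 16.5 TPM, against 39.3 to 42.9 TPM, and MYL7 in low purity well 1 of day 13 was at 1077 TPM, against 1527 to 1601 TPM. All 4 are the lowest well of their group.

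The difference between the classes changed between day 4 and day 16, by a test of the change itself, for MYH6 (7.72), MYL4 (3.86), MYL7 (3.78) and MYH7B (1.61), on the log2(TPM + 1) scale. That contrast was added with the day-by-day values known, and it does not test for a reversal.

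The lines went in opposite directions at matched stages, on the same scale and with 1 library a class in each line, so the difference between lines was not tested. For MYL3 at stage 4, high minus low was 1.95 in H9, −2.51 in IMR90-4 and 1.62 in WTC11. For MYL7 at stage 3 it was −1.92 in H9, 0.94 in IMR90-4 and 1.16 in WTC11.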

How the results depend on the processing

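Depth limits MYL2 most: at most 73 reads a well stand behind it. For other pseudocounts, no fold threshold, left-out replicates and limma on TPM, the share of all genes called is not given here. Their counts of members are therefore not read as a result about the members. A pseudocount of 0.1 called 2 members on day 0, 2 on day 2 and, over day 0, 4 in the low class on day 2. A pseudocount of 5 called 0 on day 2 and 0 in that low class change. With no fold threshold there were 2 calls on day 2, 4 on day 6 and 3 in the low class change of day 2. Leaving out 1 replicate each gave 0 to 2 calls for that change and 0 to 1 for high minus low at RNA-only stage 3. At stage 3 against stage 1, limma on TPM called 3. MYL3 lost its call on day 13 without high well 2 (1.47, adjusted p = 0.0727) or high well 3 (1.33, 0.0569) and on day 10 without TMM (1.40, 0.0540). On day 6 MYL3 was called lower without high well 1 (−1.03), high well 4 (−1.19) or low well 4 (−1.15). MYL4 was called on day 16 without low well 2 (1.04), and MYL7 lost its day 2 call with a pseudocount of 5 (−0.46). MYH7B, at 0.98 on day 13, was called without high well 3 (1.06), low well 2 (1.13) or low well 3 (1.03). Days of onset moved by setting for MYH7B and MYL2 in both classes, MYH6 in the high class (6 with a pseudocount of 5), MYH6 and MYH7 in the low class (2 and 4 with a pseudocount of 0.1), MYL4 in the low class (4) and MYL7 in the low class (2). Without TMM 826 genes were higher and 3712 lower on day 10, against 1477 and 2200 with it; on day 8 there were 875 and 2578 against 1197 and 1925, on day 13 871 and 1977 against 1168 and 1599, and on day 16 954 and 2435 against 1479 and 1964. edgeR on recovered reads called 5051 of 24223 genes on day 16, against 3443 of 25664 by limma; on days 0, 2, 4, 6 and 8 it called 643, 2676, 3672, 3852 and 5255, against 274, 1367, 2012, 2259 and 3122. It kept every count of members within 1.5 times.

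With the well number as a replicate block, the members called on day 16 numbered 3, as without it, and every count of members called stayed within 1.5 times; the numbers did not pair the wells.

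The count table under its own names, which do not match the TPM table, gave other results: columns named high day 0 there hold 59858 to 124158 reads of MYH6, against 5 to 14 by the TPM. High minus low counts of members called were 1 on day 0, 6 on day 13 and 0 on each of the other days. The share of all genes called under these names is not given here, so these counts are not read as a result about the members. Calls against day 0, rises and falls together, were 6, 2, 1 and 0 in the high class on days 2, 6, 8 and 10. In the low class they were 0, 0, 1, 0, 0 and 3 on days 4, 6, 8, 10, 13 and 16. For the day 16 minus day 4 contrast 0 were called, and no day of onset was found for any member. Directions reversed for MYH6 on days 4, 8, 13 and 16 (1.60, −1.73, −8.74 and −4.32), MYL4 on days 4, 8 and 13 (0.95, −2.31 and −9.77), MYL7 on days 4 and 8 (0.97 and −0.13), MYL3 on day 13 (−14.23), MYH7B on day 16 (−0.20), and the day 16 minus day 4 contrast of MYH6, MYL4 and MYL7 (−5.92, −3.93 and −4.60).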
